A study of Nothobranchius furzeri and Aphyosemion australe and Iconisemion striatum with 145 samples.

Results

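The extracellular matrix and integrin genes described here are 115 of the 25122 genes counted in the African turquoise killifish (Nothobranchius furzeri). They were chosen by name alone: every gene whose symbol begins like a collagen chain, a laminin chain, fibronectin, an integrin, a nidogen, perlecan, agrin, a fibrillin, a fibulin, a link protein, a proteoglycan core, SPARC, a matrilin, a collagen-modifying enzyme, a matrix protease or a metalloproteinase inhibitor. The study asked how diapause, a halt of embryonic development, evolved in killifish. The RNA described here was sequenced from 4 pools of African turquoise killifish embryos of the inbred GRZ strain at the pre-diapause stage. Kupffer's vesicle is then present, and the labels count 15 to 22 somites. Wild-type, control and knockout single-embryo libraries of this species in development and in diapause are also part of the study and were not used here. A pool held 8 to 10 embryos, from which the yolk, the chorion and the enveloping layer had been removed by dissection. The methods state that these embryos came from young parents and were expected mostly to develop without entering diapause. There was no second group of this species at this stage, so the values below describe levels and their spread over 4 libraries, and no difference between conditions was tested. The lyretail and red-striped killifish libraries were not used here, because their features carry no gene symbols by which matrix genes could be found.

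The extracellular matrix is the protein network that cells secrete around themselves. Laminins and collagen IV form the sheets of basement membranes, joined by nidogens and by the proteoglycans perlecan and agrin, while fibrillar collagens build the fibres of connective tissue, cartilage and the sheath of the notochord. Integrins are pairs of an alpha and a beta chain that span the cell membrane and bind these proteins, and in zebrafish embryos laminins, fibronectin and sheath collagens are needed for the notochord and the somites to take their shape. Levels are given as CPM, counts per 1000000 counts of the library. CPM are not divided by gene length, so that the values of different genes give their shares of the reads and not the order of their transcript levels. In RNA from whole embryo bodies, fewer cells of a type and less RNA per cell cannot be told apart.

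Between 25985703 and 41191533 reads were counted per library, and every pair of libraries differed by more than counting noise (chi-square per degree of freedom 82.9 to 440). Library 2, the deepest, stood apart: its mean Pearson r with the others was 0.940, against 0.958 to 0.969 for libraries 1, 3 and 4, across log2 CPM of genes that are not independent replicates. It was far from library 1 (r 0.937) and library 3 (0.919), but its r of 0.965 with library 4 was near the 0.968 between libraries 1 and 4. Of the notochord markers 3 of 10 were found by name, with a summed level of 157 CPM in library 2, against 110.1, 134 and 143 CPM in libraries 1, 3 and 4. The transcription factors tbxta (43.3 CPM, against 20.5, 19.7 and 37.2 CPM) and foxa2 were highest in library 2, while the sheath collagen col2a1a was lowest there. Of the somite and muscle markers 5 of 8 were found, with a sum of 178 CPM in library 2, against 136, 121 and 175 CPM. Of these tbx6, myf5 and myod1 were highest in library 2, pax3a was lowest there (18.7 CPM, against 26.8, 26.1 and 26.4 CPM), and myog lay within the range of the others. The keratin krt5, the only one of 5 enveloping layer markers found, had 50.8 CPM in library 2, against 89.7, 130 and 82.6 CPM in libraries 1, 3 and 4. Of the cartilage and bone markers 4 of 6 were found, with a sum of 5.95 CPM in library 2, against 4.58, 4.74 and 5.33 CPM: acan and matn1 had at most 6 counts in any library, and sp7 and runx2b averaged 3.43 and 1.59 CPM. Neural markers, 3 of 5 found, summed to 309 CPM in library 2, against 182, 158 and 267 CPM. Among them sox3 and neurog1 were highest in library 2 and sox2 lowest. Blood and endothelium markers, 4 of 6 found, summed to 31.4 CPM in library 2, against 27.8, 32.1 and 46.0 CPM. This sum joins genes that differed in direction. Both tal1 and gata1a were higher in libraries 2 and 4 than in libraries 1 and 3, while kdrl and cdh5 were lowest in library 2. Markers of yolk syncytial layer and liver, 4 of 6 found, summed to 64.9 CPM, against 76.4, 57.6 and 44.6 CPM. What part these differences between the pools have in the results below was not tested.

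Of the 115 genes, 68 (59.1%) reached at least 1 CPM in each of the 4 libraries, against 53.7% of all genes. At a limit of 5 CPM the count was 36 (31.3%), against 36.4% of all genes. By mean level, 2 lay at 100 CPM or above, 31 between 10 and 100 CPM, 45 between 1 and 10 CPM, 28 between 0.1 and 1 CPM and 9 below 0.1 CPM. Of all 25122 genes, the same bands held 1619, 6371, 6773, 5455 and 4904. No member lacked counts in every library, against 1059 of all genes. At least 1 library lacked counts for 15 members, against 5690 of all genes. Together the members took 0.238% ± 0.0245 of all counts (SD, n = 4), with 0.252% in library 2, against 0.244%, 0.201% and 0.253% in libraries 1, 3 and 4. A single gene, sparc, supplied 50.8% of these counts in library 2, against 30.3%, 25.9% and 41.2% in libraries 1, 3 and 4. Without sparc the members took 0.148% ± 0.0189 of counts, and library 2 then had the lowest share, 0.124%, against 0.170%, 0.149% and 0.149%. In library 2 sparc thus had its highest level and the sum of the other members its lowest, although single members such as efemp2 were highest there too.

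**Figure D1:**
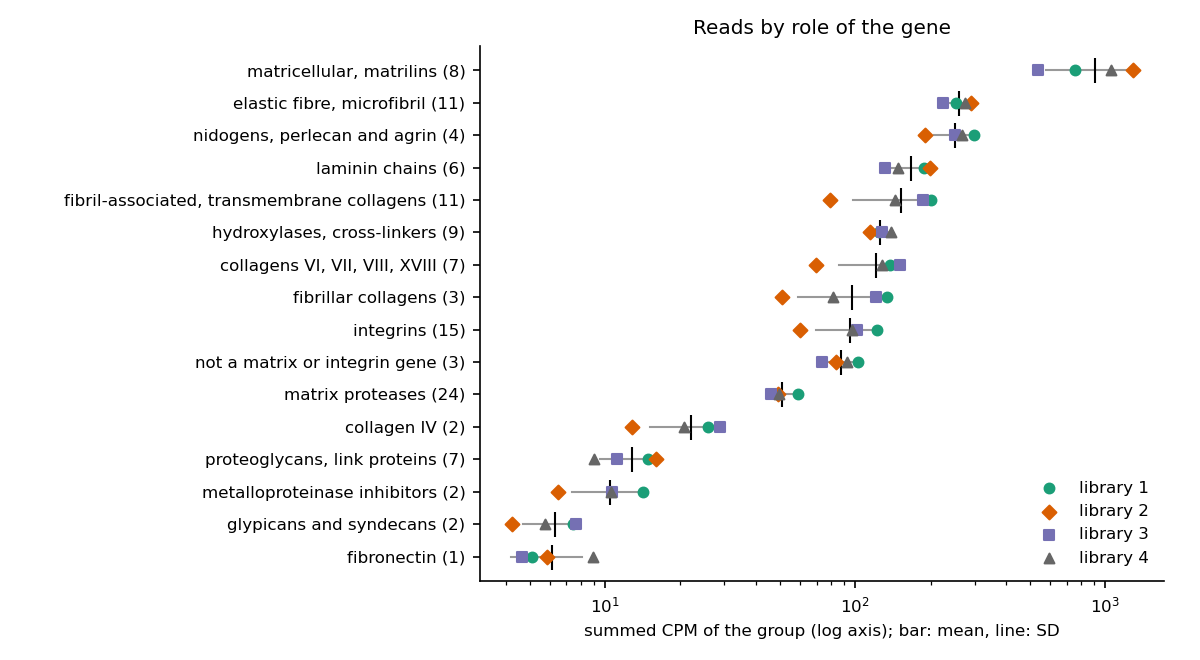
Summed CPM on a log axis for each role of gene, with the number of genes in parentheses, a point for each of the 4 libraries, a bar for the mean and a line for the SD. The 8 matricellular genes, almost all of it sparc, ranged from 539 to 1288 CPM and were highest in library 2, while the 3 fibrillar collagens ranged from 51.0 to 134 CPM and were lowest there.

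Because library 2 stood apart over all genes, its place among the 4 values was counted for each of the 78 members with a mean of at least 1 CPM, a count chosen after the data were seen. In 21 of the 78 (26.9%) the level in library 2 was at least 1.5 times below the lowest of the other libraries, against 13.1% of all 14763 genes at that mean. In only 2 (2.56%), fbln5 and hapln3, was it at least 1.5 times above the highest of the others, against 8.26% of all genes. Library 2 held the lowest of the 4 values for 41 members (52.6%), against 36.0% of all genes, and the highest for 15 (19.2%), against 34.6%. By the same factor of 1.5, library 1 lay below the others for 2 members, library 3 for 2 and library 4 for 0, against 2.30%, 5.90% and 1.06% of all genes. Above the others by that factor lay library 1 for 5 members, library 3 for 2 and library 4 for 1, against 2.99%, 1.08% and 0.853% of all genes. Library 1 held the highest value for 34 of the 78 (43.6%), against 32.6% of all genes. The median member lay at -0.41 in library 2 on the log2(CPM + 0.5) scale, relative to the mean of libraries 1, 3 and 4, and the median of all genes lay at 0.02. With TMM-scaled libraries these medians were -0.42 and 0.01.

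The members set low in library 2 had several roles. They were 9 collagen chains (col4a1, col6a3, col8a1, col9a2, col9a3, col11a1, col12a1, col16a1 and col25a1), 3 integrin chains (itga4, itga9 and itgb1), the basement membrane genes agrn, hspg2 and lama3, and matn4, plod2, timp2, mmp2, adamts18 and col4a3bp, which is no collagen despite its name. At a factor of 2 there were 7 of 78 (8.97%), against 4.71% of all genes: col8a1, col9a3, col11a1, col25a1, itgb1, matn4 and plod2. Of the 33 members with a mean of at least 10 CPM, 13 (39.4%) were lower in library 2 by 1.5 times, against 12.4% of all genes at that mean. In the other direction no member passed either stricter rule, against 1.24% of all genes at a factor of 2 and 8.64% at a mean of 10 CPM. The 2 members above the others became 6 when library 4 was left out. With fewer libraries to pass, the rule is easier to meet for any gene, and the share of all genes was not counted for that case.

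**Figure D2:**
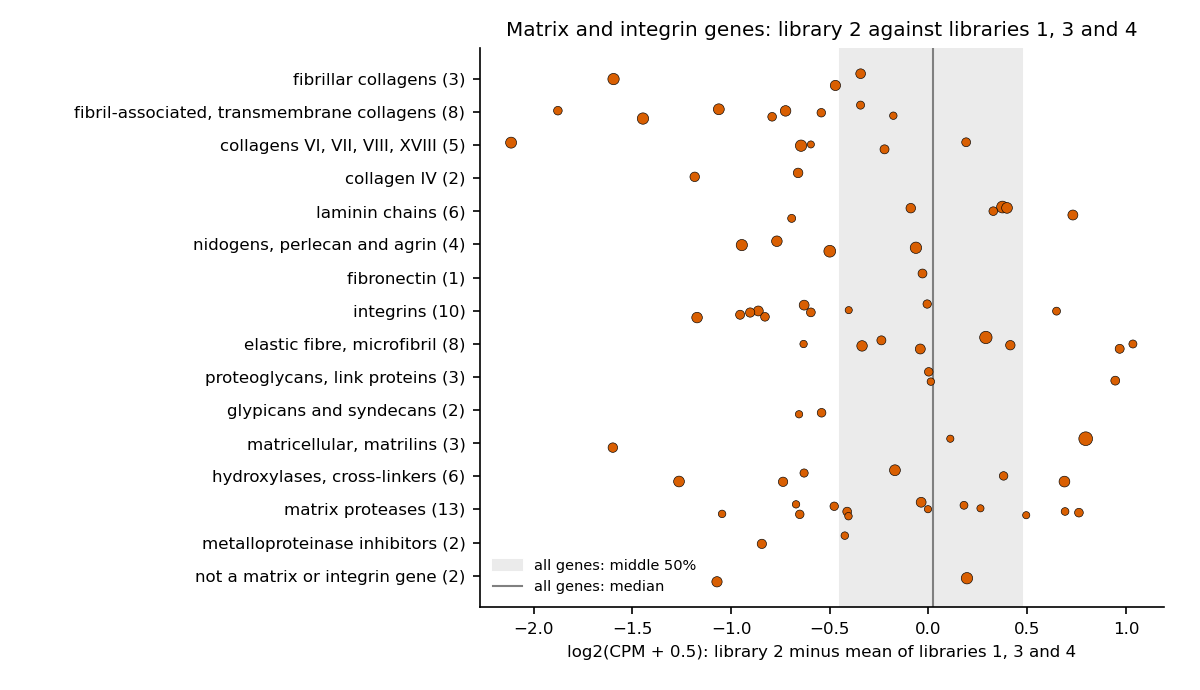
Each point is a member with a mean of at least 1 CPM, placed by its log2(CPM + 0.5) in library 2 minus the mean of libraries 1, 3 and 4, and sized by its mean level; rows are roles, with the number of genes in parentheses. The grey band holds the middle 50% of all genes around their median of 0.02, and collagens, integrins and matn4 extend to its left as far as -2.11, for col8a1.

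Among the fibrillar collagens, col11a1 encodes a chain that starts the fibrils of cartilage and notochord sheath. It had 23.7 CPM in library 2, against 89.9, 83.6 and 51.0 CPM in libraries 1, 3 and 4. The smallest of the other values was 2.15 times that of library 2, and library 4 lay between. The gene col1a2, for the second chain of the collagen of skin, bone and tendon, moved less: it had 16.7 CPM in library 2, against 25.5, 24.5 and 20.2 CPM. The fibrillar chain col24a1 had 10.6 CPM in library 2, against 18.5, 13.5 and 10.0 CPM, so that libraries 2 and 4 overlapped. Summed over these 3 genes, the level was 96.9 ± 38.0 CPM (SD, n = 4).

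Collagen IX sits on the surface of collagen II fibrils as a trimer of 3 different chains. Its chain col9a3 had 26.9 CPM in library 2, against 93.7, 75.5 and 57.6 CPM in libraries 1, 3 and 4. The chain col9a2 had 21.6 CPM in library 2, against 53.9, 50.01 and 35.4 CPM, the same order of libraries. The gene listed as col9a1 was low, with 13 to 46 counts per library and a mean of 0.76 ± 0.44 CPM. Other members of the fibril-associated and transmembrane classes were col12a1, which lies along collagen I fibrils, with 18.9 CPM in library 2, against 29.7, 35.4 and 29.9 CPM, and the transmembrane chain col25a1, which motor axons need to enter muscle in mice, with 1.26 CPM in library 2, against 6.31, 6.10 and 5.53 CPM. For col25a1 the other 3 libraries lay close together, and the lowest of them was 4.38 times library 2. The copy col12a1b, named only from RefSeq, had 14.3 CPM in library 2, against 13.6, 14.6 and 12.9 CPM. The chains col16a1, col20a1, col19a1, col14a1 and col22a1 had means of 0.645 to 5.01 CPM, and col21a1 had at most 11 counts in any library.

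Collagen VIII forms open hexagonal sheets, and in zebrafish its col8a1a chain is part of the notochord sheath. Here col8a1 had 12.0 CPM in library 2, against 54.5, 60.4 and 47.0 CPM in libraries 1, 3 and 4, a range of 5.03-fold and the widest among the members with a mean of at least 10 CPM. Its partner chain col8a2 had only 2 to 14 counts per library. The basement membrane collagen col18a1, whose end fragment is endostatin, had 44.3 CPM in library 2, against 66.1, 75.7 and 67.4 CPM. Collagen VI, a beaded filament around cells of muscle and connective tissue, was read at a few CPM: col6a1 averaged 6.78 ± 1.18 CPM and col6a2 averaged 5.95 ± 0.84 CPM (SD, n = 4), neither set apart in library 2. The anchoring fibril chain col7a1 averaged 0.505 CPM. Over the 23 collagen chains among the members the summed level was 393 ± 132 CPM. It was 213 CPM in library 2, against 498, 487 and 373 CPM in libraries 1, 3 and 4. Of the 18 chains with a mean of at least 1 CPM, 9 (50%) were set low in library 2, against 13.1% of all genes. The sum leaves out collagen genes named only from RefSeq, among them col5a3a, col9a1b and col2a1a, with means of 68.5, 67.3 and 66.7 CPM.

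**Figure D3:**
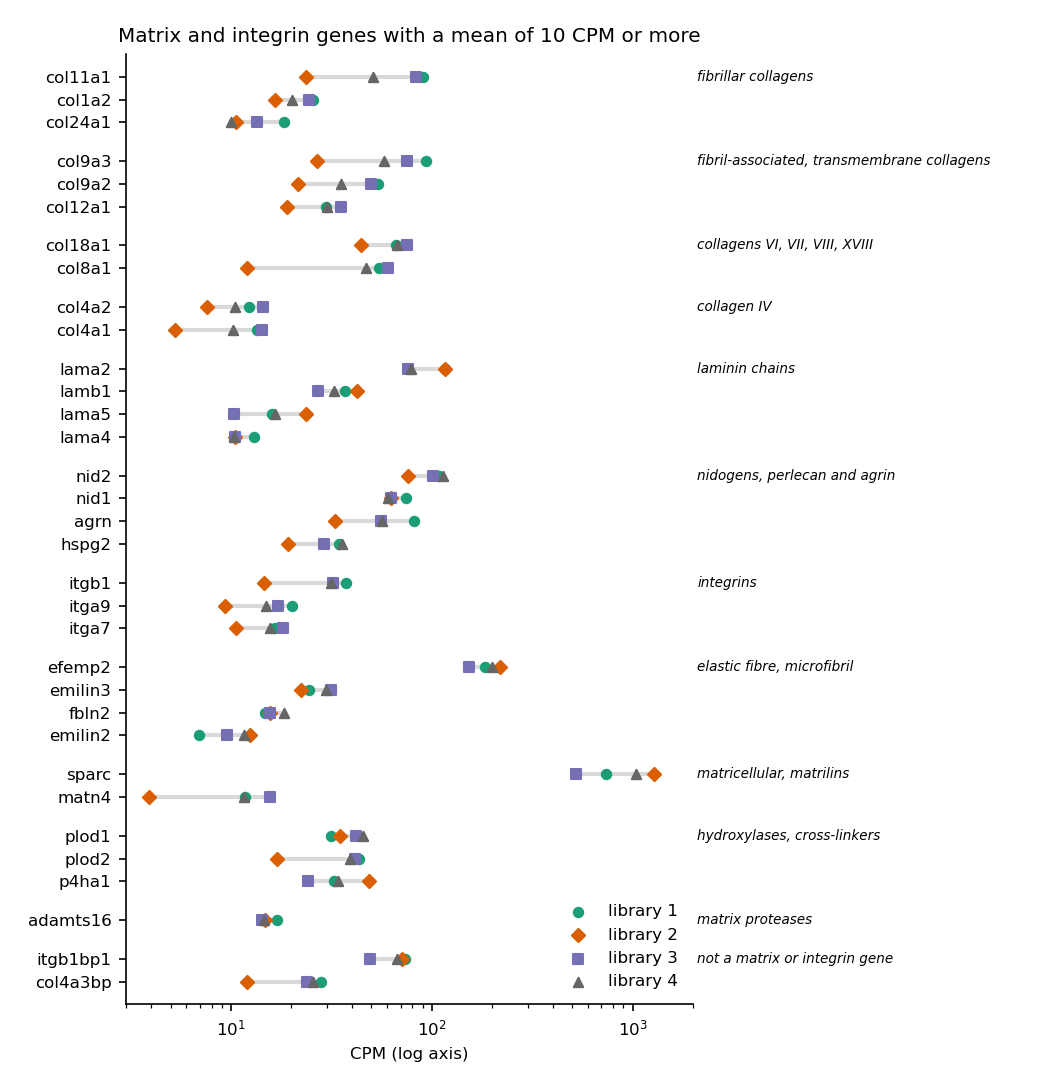
CPM on a log axis in each of the 4 libraries for the 33 members with a mean of at least 10 CPM, grouped by role, with a grey line over the range. Library 2 (diamonds) is leftmost for most collagens, agrn, hspg2, the integrins, matn4 and plod2, and rightmost for sparc, efemp2, lamb1, lama5, emilin2 and p4ha1.

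The 12 basement membrane genes among the members summed to 440 ± 50.5 CPM (SD, n = 4). Their sum was 403 CPM in library 2, against 513, 410.3 and 435 CPM in libraries 1, 3 and 4. It leaves out chains named only from RefSeq, such as col4a6 and lamb2l, with means of 41.6 and 20.4 CPM. Of the 12, 4 (33.3%) were set low in library 2. The share of all genes was 13.1%, and 12 genes are too few to read a difference from it. The nidogens tie the laminin and collagen IV layers together: nid2 had 76.1 CPM in library 2, against 108, 102 and 114 CPM in libraries 1, 3 and 4, and nid1 had 62.6 CPM, against 74.2, 62.7 and 60.4 CPM. The range of nid1 was 1.23-fold. The proteoglycan agrn, known for gathering acetylcholine receptors at the nerve-muscle synapse, had 32.9 CPM in library 2, against 81.8, 55.8 and 56.7 CPM, and perlecan (hspg2) had 19.2 CPM, against 34.4, 29.2 and 35.8 CPM. Both lay below the other libraries by more than 1.5 times, while the nidogens did not. Collagen IV was read at similar levels from its neighbouring genes col4a1, with 5.24 CPM in library 2, against 13.4, 14.3 and 10.3 CPM, and col4a2, with 7.60 CPM, against 12.3, 14.4 and 10.5 CPM.

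Laminins are crosses of an alpha, a beta and a gamma chain. The alpha chain lama2, the form of muscle basement membranes, had 116 CPM in library 2, against 117, 76.5 and 79.2 CPM in libraries 1, 3 and 4. The beta chain lamb1, which the zebrafish notochord needs, had 42.2 CPM in library 2, against 36.9, 27.1 and 32.5 CPM. The broadly used alpha chain lama5 had 23.6 CPM, against 16.01, 10.3 and 16.5 CPM. For lamb1 and lama5 library 2 held the highest value, unlike most collagens, and for neither by 1.5 times. The vessel and nerve form lama4 had 10.5 CPM in library 2, against 13.05, 10.4 and 10.3 CPM, and the gene listed as lama3, the name of a skin form, had 1.65 CPM, against 3.00, 3.27 and 2.68 CPM. The gamma chain lamc1, common to most laminins, had 5.68 CPM in library 2, against 2.89, 4.39 and 6.71 CPM. Of these 6 chains only lama3 was set low in library 2, and RefSeq gives that symbol to another gene as well, so that the identity of the chain is uncertain.

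The matricellular protein SPARC binds collagens and calcium and is secreted into basement membranes. Its gene had 1282 CPM in library 2, against 740.0, 521 and 1043 CPM in libraries 1, 3 and 4, a range of 2.46-fold in which libraries 2 and 4 were high and libraries 1 and 3 low. Counting error is small at this depth, since the lowest count was 17675. The matrilin matn4, an adaptor that joins collagen fibrils to other matrix proteins, ran the other way, with 3.91 CPM in library 2, against 11.7, 15.6 and 11.6 CPM. The gene listed as postn, for periostin, averaged 1.18 ± 0.26 CPM (SD, n = 4). The thrombospondins thbs1, thbs2 and thbs4 had 2 to 26 counts per library, and the cartilage matrilins matn1 and matn3 had 4 counts or fewer.

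Elastic fibre and microfibril genes took 260 ± 28.4 CPM (SD, n = 4), most of it from efemp2, the gene of fibulin-4, which brings lysyl oxidase to elastin. This gene had 218 CPM in library 2, against 185, 153 and 199 CPM in libraries 1, 3 and 4. The emilin emilin3, which is made by the notochord in zebrafish, had 22.4 CPM, against 24.5, 31.5 and 29.7 CPM. The basement membrane fibulin fbln2 varied least of these, with 15.7 CPM, against 14.8, 15.6 and 18.3 CPM. The elastic fibre fibulin fbln5 was one of the 2 members above the others, with 10.9 CPM in library 2, against 5.58, 4.24 and 6.27 CPM. The fibrillin fbn3, which in humans is made mostly before birth, had 4.54 CPM in library 2, against 1.08, 1.77 and 3.65 CPM, with libraries 2 and 4 again together, and fbn1 had 5.54 CPM, against 12.0, 5.81 and 4.09 CPM. Elastin itself (eln) had 4 to 16 counts per library.

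The shared beta chain of most matrix-binding integrins, itgb1, had 14.7 CPM in library 2, against 37.4, 32.3 and 31.5 CPM in libraries 1, 3 and 4. Among the alpha chains, itga9, itga4 and itga7 followed in the same direction. The chain itga9, a receptor for tenascin and other ligands, had 9.30 CPM in library 2, against 20.2, 17.2 and 14.9 CPM, and the fibronectin-binding chain itga4 had 3.88 CPM, against 9.85, 7.28 and 7.11 CPM. The muscle laminin receptor itga7 had 10.6 CPM, against 16.5, 18.1 and 15.7 CPM, and missed the factor of 1.5. The hemidesmosome chain itgb4 had 4.98 CPM, against 14.7, 8.46 and 7.41 CPM. Of the 10 integrin genes with a mean of at least 1 CPM, 3 (30.0%) were set low in library 2 by the factor of 1.5. The share of all genes was 13.1%, and 10 genes are too few to read a difference from it. Library 2 held the lowest value for 8 of the 10, and for 36.0% of all genes, with the same limit of few genes. The exceptions were itgb5, highest there with 3.57 CPM, against 2.23, 1.53 and 2.65 CPM, and itga3, a laminin receptor chain. The level of itga3 was 3.81 CPM in library 2, against 3.81, 3.86 and 3.82 CPM, a coefficient of variation of 0.62%, below the 9.07% that counting error alone gives. With libraries scaled by TMM it was 7.44%, and with DESeq2 size factors 6.85%, so that its near equality rests on the scaling by totals. The remaining 5 of 15 integrin names (itga2, itga8, itga11, itgb6 and itgbl1) averaged 0.64 CPM or less. Further integrin genes with a mean of at least 1 CPM were named only from RefSeq. Of these, itga6a and itgb3a were lowest in library 2, while itga5, itgav and another gene named itga8 were not.

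The enzymes that modify collagen chains took 126 ± 9.93 CPM (SD, n = 4), and single genes differed in direction. The lysyl hydroxylase plod2, which acts on the chain ends where cross-links form, had 16.9 CPM in library 2, against 43.2, 41.4 and 39.2 CPM in libraries 1, 3 and 4. Its relative plod1, which acts on the triple helix, had 34.9 CPM in library 2, against 31.5, 42.1 and 45.6 CPM. The prolyl 4-hydroxylase subunit p4ha1, which stabilises the helix, had 48.6 CPM in library 2, against 32.5, 24.1 and 34.3 CPM, and its relative p4ha2 had 6.07 CPM, against 9.08, 10.0 and 12.5 CPM. The sum of the group hence hid a low plod2 and a high p4ha1 in library 2. The cross-linking enzymes loxl3 and loxl1 averaged 4.32 ± 0.78 and 3.34 ± 1.08 CPM, while the gene listed as lox had 2 counts in all.

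The group of matrix proteases was the largest by number, with 24 genes, and took 50.9 ± 5.65 CPM (SD, n = 4). By name it also holds the ADAMTS-like genes adamtsl1, adamtsl2 and adamtsl5, which encode no protease. The most read of these members was adamts16, a secreted protease that cleaves fibronectin in mammals. It had 14.8 CPM in library 2, against 17.0, 14.2 and 14.6 CPM in libraries 1, 3 and 4, a range of 1.19-fold. The gene mmp23bb, named only from RefSeq and so not a member, averaged 45.0 CPM. The procollagen-trimming protease adamts3 had 7.65 CPM in library 2, against 4.31, 3.30 and 5.57 CPM. The gelatinase mmp2 was set low, with 0.66 CPM in library 2, against 2.46, 2.18 and 1.21 CPM, and its inhibitor timp2 too, with 5.24 CPM, against 12.2, 8.66 and 8.89 CPM. The membrane protease mmp14, which with TIMP2 activates MMP2, had 3.06 CPM in library 2, against 1.81, 2.06 and 1.31 CPM. Its copy mmp14b, named only from RefSeq, was lowest there, with 5.12 CPM, against 5.39, 8.58 and 6.07 CPM. The gene mmp21, which in fish and mammals sets left-right asymmetry, a process that starts in Kupffer's vesicle in fish, had 1.53 CPM in library 2, against 0.73, 0.71 and 1.51 CPM, and it was chosen for mention after its values were seen. The collagenase mmp13 had 8 counts in library 2 and none elsewhere, and mmp9 had at most 6 counts in any library. At these depths a count of 0 does not show that a gene is silent.

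The 7 members classed as large or small proteoglycans and link proteins summed to 12.8 ± 3.25 CPM (SD, n = 4). This sum is not that of all proteoglycans. It leaves out agrn and hspg2, counted with the basement membrane genes, and the heparan sulphate carriers below. It also leaves out the small proteoglycan dcn, named only from RefSeq, whose level was above this sum in each library. The link protein hapln3, which fixes proteoglycans to hyaluronan, was the other member above the rest, with 9.76 CPM in library 2, against 5.77, 4.74 and 4.09 CPM in libraries 1, 3 and 4. The small proteoglycan lum averaged 4.395 ± 1.03 CPM, and bgn had 2 to 4 counts per library. The heparan sulphate carriers gpc5 and gpc2 averaged 4.89 ± 1.496 and 1.39 ± 0.54 CPM, and no row name matched a syndecan. Another such carrier, gpc4, was named only from RefSeq and averaged 28.4 ± 3.46 CPM. The gene listed as fn1, for fibronectin, had 5.85 CPM in library 2, against 5.12, 4.66 and 8.95 CPM. The name rule also took in 3 genes that encode no matrix protein or integrin. They are itgb1bp1, a cytoplasmic protein that binds the integrin tail, with 65.3 ± 11.2 CPM, col4a3bp, a ceramide carrier, with 22.4 ± 7.12 CPM, and loxhd1, a protein of hair cell bundles, with 0.29 ± 0.38 CPM.

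Over all 4 libraries, though not without library 2, the members varied somewhat more than genes in general. The sets were not matched for level: 33 of the 78 members had a mean of at least 10 CPM, against 7990 of 14763 genes. The median coefficient of variation of the members was 30.3% over the 78 with a mean of at least 1 CPM, against 26.3% over all genes. Without library 2 it was 19.1%, against 20.6% over all genes. The largest among these members was that of the gene listed as fbln1, 74.4%, with 0.75 CPM in library 2, against 1.65, 2.89 and 0.50 CPM in libraries 1, 3 and 4.

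Chains that join into one protein were compared within each library as the log2 ratio of their counts, with 1 count added to each. Without transcript lengths the ratio itself does not give a proportion of chains, and only its movement between libraries is read. Chains of different collagens were not compared in this way, so a steady ratio is not shown to be particular to partner chains. For collagen I the ratio of col1a1a, a gene named from RefSeq, to col1a2 was 0.64 ± 0.06 (SD, n = 4) and moved 1.09-fold over the libraries, although col1a2 itself ranged 1.53-fold. For collagen IX the ratio of col9a3 to col9a2 was 0.60 ± 0.21 and moved 1.40-fold, while col9a3 ranged 3.48-fold and col9a2 2.49-fold. The ratio of col9a1b, another RefSeq name, to col9a2 moved 1.29-fold. These chains of collagens I and IX differed between pools more than their proportions did, with col1a1b (1.49-fold to col1a2) and the sparsely counted col9a1 (2.28-fold to col9a2) moving further. Collagen VI went the other way: the ratio of col6a1 to col6a2 moved 1.57-fold, while col6a1 ranged 1.44-fold and col6a2 1.31-fold. The ratio of col6a3 to col6a2 moved 3.03-fold. The collagen IV ratio of col4a1 to col4a2 was -0.11 ± 0.29 and moved 1.58-fold. In the second collagen IV pair, whose genes also lie side by side in RefSeq, it moved 4.54-fold: col4a6 had 12.5 CPM in library 2, against 59.8, 49.2 and 44.8 CPM in libraries 1, 3 and 4, and col4a5 had 4.93 CPM, against 5.58, 4.27 and 5.83 CPM. Ratios to the laminin chain lamc1 moved 2.61-fold for lamb1 and 2.34-fold for lama5. The ratio to lamc1 of nid1, whose product is a separate protein that binds this chain, moved 2.83-fold. The ratio of p4ha1 to its partner p4hb moved 1.99-fold. Ratios of alpha chains named from RefSeq to itgb1 moved 2.98-fold for itga5, 4.92-fold for itgav and 1.58-fold for itga6a.

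**Figure D4:**
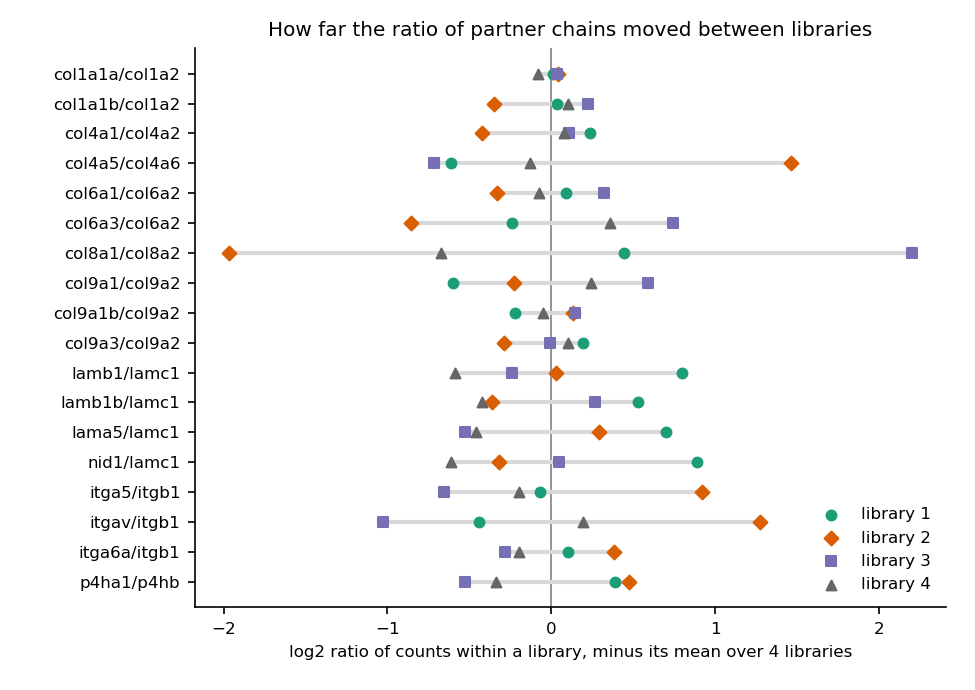
For each pair of partner chains, the log2 ratio of counts in each of the 4 libraries minus the mean of that ratio, with a grey line over the range. The pair nid1/lamc1 is of separate proteins that bind each other. Collagen I (col1a1a/col1a2) and IX (col9a3/col9a2) chains stay near the line at 0, the laminin and integrin pairs spread wider, and the widest pair, col8a1/col8a2, rests on 2 to 14 counts of col8a2.

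The row names leave out many matrix genes that are listed only by a LOC number. Of these, 83 have a RefSeq symbol in the NfurGRZ-RIMD1 assembly that fits the same name rule, and 53 of them had a mean of at least 1 CPM. Of the 53, 13 (24.5%) were set low in library 2 by 1.5 times and 2 (3.77%) set high, against 13.1% and 8.26% of all genes. In 17 cases the symbol is that of a member with a copy letter or suffix, and in 3 cases, fbln1, itga8 and lama3, it is the symbol of a member itself. These 3 averaged 28.3, 1.48 and 0.03 CPM, next to 1.45, 0.07 and 2.65 CPM for the members so named, and which of each pair is the true gene was not tested. The copy named fn1a had 58.9 CPM in library 2, against 136, 120 and 137 CPM in libraries 1, 3 and 4, next to 6.14 ± 1.94 CPM for fn1. The copy named postnb had 5.92 CPM in library 2, against 18.9, 17.5 and 13.4 CPM, and mmp23bb averaged 45.0 CPM next to 0.77 CPM for mmp23b. Levels of a named member are therefore not those of its whole family. The collagen II genes, the main fibril of notochord sheath and cartilage, are also in this set: col2a1b had 22.7 CPM in library 2, against 92.9, 64.5 and 44.8 CPM, the library order of col11a1 and col9a3, and col2a1a had 54.1 CPM, against 64.2, 88.8 and 59.6 CPM. Syndecans appear only here, with sdc4 at 97.3 ± 14.9 CPM and sdc3 at 42.3 ± 4.55 CPM (SD, n = 4), while sdc2 was set high in library 2, with 6.94 CPM, against 0.54, 0.59 and 3.72 CPM.

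Other genes of the same pathways were listed for comparison. Of 28 symbols for collagen folding, processing and export, 21 were found, 18 had a mean of at least 1 CPM, and 3 of these (16.7%) were set low in library 2 and 0 high, a share near the 13.1% of all genes set low. The collagen chaperone serpinh1 had 157 CPM in library 2, against 154, 118 and 127 CPM in libraries 1, 3 and 4, and the prolyl isomerase ppib had 920.3 CPM, against 395, 462 and 841 CPM. Of 40 symbols for integrin-linked adhesion and other matrix receptors, 26 were found, 24 had a mean of at least 1 CPM, and 8 (33.3%) were set low and 0 high, against 13.1% and 8.26% of all genes. They included the laminin receptor dag1, with 45.2 CPM in library 2, against 133, 133 and 118 CPM, and the adhesion protein vcl, with 20.95 CPM, against 71.0, 39.1 and 34.4 CPM. Among 17 genes at this mean for the sugar chains of proteoglycans, 6 (35.3%) were set low and 2 (11.8%) high, against the same 13.1% and 8.26%. Among 9 for hyaluronan 2 were low and 2 high, too few to set against those shares. The hyaluronan synthase has2 had 10.2 CPM in library 2, against 22.4, 18.1 and 18.5 CPM, while ugdh, which makes a sugar precursor of these chains, had 164 CPM, against 69.0, 52.9 and 103 CPM.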

How the data were processed

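The 4 African turquoise killifish libraries are separate pre-diapause pools by their labels. The authors deposited raw read counts per gene, made according to their methods and processing notes with Trim Galore 0.4.5, STAR 2.7.1a, SAMtools 1.5 to drop reads aligning to several loci, and featureCounts of Subread 2.0.1. Near-identical copies therefore lose reads. The study lists Nfu_20140520 as its reference genome of the species. The processing notes also name DESeq2 1.30.1, which the deposited counts do not include.

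CPM on library totals were computed with Python 3.11.15, pandas 2.3.3 and numpy 2.4.6, and figures were drawn with matplotlib 3.10.9. TMM factors and dispersions came from edgeR 4.0.16 and size factors from DESeq2 1.42.0 in R 4.3.3. Members and lists were chosen with earlier results of these data known. Named genes are the chains of the main collagens, laminins, fibronectin, nidogens, perlecan and agrin, the 3 most read members of each role, names that fit by spelling only, and members with a library set apart; genes of the lists, of the library counts and of partner pairs are named beside them. Symbols of LOC-numbered genes come from RefSeq (NfurGRZ-RIMD1), used for names and neighbours only.

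A planned test of a against b copies was not run, because 0 members had such a partner among row names and no coding lengths were given. Chain ratios were left without length and therefore without a test against 0. The code of the library 2 rule was tested on simulated counts with known changes, which does not test the counts reported. The alternatives were the library scaling, the CPM limit, the pseudocount, the 10 most abundant genes and each library left out.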

Additional observations from a re-analysis of the deposited data

Results flagged for a closer look

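For 4 of 84 groups of values screened, 1 library lay apart from the other 3 by Dixon's ratio, at the 95% level. Chance gives about 1 in 20 such groups. The hydroxylase gene plod2 was low in library 2, at 16.9 CPM, against 43.2, 41.4 and 39.2 CPM in libraries 1, 3 and 4. In the other 3 cases library 1 was high. The nidogen nid1 had 74.2 CPM there, against 62.6, 62.7 and 60.4 CPM in libraries 2, 3 and 4. The laminin chain lama4 had 13.05 CPM in library 1, against 10.5, 10.4 and 10.3 CPM. The protease adamts20 had 8.35 CPM in library 1, against 3.93, 4.30 and 4.33 CPM.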

How the results depend on the processing

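No paired analysis was possible because the 4 libraries form a single group. The number of members at 1 CPM or more in every library, 68, was 68 with TMM or DESeq2 scaling, 78 at a limit of 0.5 CPM, 36 at 5 CPM, 85 at 10 counts, and 68 to 71 when each library was left out. The 21 members low in library 2 became 20 with TMM, 21 with DESeq2 size factors, 13 at a mean of 10 CPM, 7 at a factor of 2, and 22 to 30 without one of libraries 1, 3 and 4. The 2 members high in library 2 became 0 at a mean of 10 CPM, 0 at a factor of 2, and 2 to 6 without one of the others, 6 of them without library 4. Leaving out a library makes both rules easier to meet for any gene, and the shares of all genes were not counted for those cases. The coefficient of variation of itga3, 0.62%, was 7.44% with TMM and 6.85% with DESeq2 size factors. The share of counts on all members, 0.238%, was 0.148% without sparc. Summed levels and shares of the roles, and the levels and chain ratios of named genes, otherwise stayed within 1 SD of their values in all alternatives run. Leaving out 1 of 4 libraries cannot move a mean by 1 SD, whatever the values, so the outcome of that alternative was fixed beforehand. With 4 libraries of one group, the spread rests on few values, and genes with a few counts per library could not be ordered at this depth. Without transcript lengths, levels of different genes were not ranked.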
